A study of Mus musculus with 27 samples.

Results

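The regions described here are stretches of the mouse genome that carried high CpG methylation in the hepatocytes of most of 9 inbred strains and low methylation in a few. The 19 autosomes were divided into tiles of 1000 bp, and 94688 tiles held at least 3 CpG positions that were listed in all 27 samples (shared positions). A methylation level is the percentage of reads at a position that kept their cytosine through bisulfite treatment, and the level of a tile in a strain was taken as the mean over its shared positions and 3 samples. At 52372 tiles at least 5 strain means were 75% or more. Of these, 205 (0.391%) also had at least 1 strain mean of 40% or less and are the members. The other 52167 had no strain mean of 40% or less and serve as comparison tiles. Below, a strain at 40% or less is called low at a tile, a strain at 75% or more methylated, and a strain from 40 to 75% intermediate. The measured levels themselves chose the members, so differences in level between strains at these tiles are given as a description. A test over all tiles and a test of listed positions are given below, and nothing about the members is read from them.

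The samples were hepatocytes from the livers of female mice aged 12 weeks, with 3 samples labelled as biological replicates in each strain. The labels name no treatment and no engineered allele, and no strain served as a control. The laboratory strains were A/J, 129S1/SvImJ, DBA/2J, C57BL/6J, NZO/HlLtJ and NOD/ShiLtJ. WSB/EiJ, CAST/EiJ and PWK/PhJ descend from wild mice of different subspecies. DNA was measured by reduced representation bisulfite sequencing, which reads the fragments around sites cut by the enzyme MspI. Between 2904787 and 3156965 positions were listed per sample. The percentages come without read counts. Their depth is therefore unknown, and the spread between the 3 samples of a strain is the measure of error used throughout.

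In mammals a methyl group is placed on cytosines that precede a guanine, and Dnmt1 copies the pattern to the new strand when DNA is replicated, while Tet enzymes start its removal. Most of the genome outside CpG islands is methylated in a differentiated cell such as the hepatocyte, and stretches of low methylation tend to lie at promoters and at enhancers bound by transcription factors. As a check of the labelled cell type, the level over the gene span and 1 kb on either side was 14.6% in the median of 8 hepatocyte marker genes with at least 3 shared positions (0.777 to 67.6%). It was 83.6% (60.9 to 90.4%) for 5 immune markers, 88.3% (33.0 to 92.2%) for 5 endothelial markers, 50.7% (3.12 to 88.8%) for 5 stellate cell markers and 26.3% (10.4 to 48.0%) for 3 biliary markers, so the ranges overlap and single markers of other cell types were as low as hepatocyte ones. In bulk DNA a level between 0 and 100% does not tell a share of cells from a share of alleles.

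Of the RefSeq promoter windows available (250 bases before to 50 after a gene's start, GRCm38.p6), 4 overlapped a member, those of Gm34653, Gm42350, Rnf212 and Zfp872. The windows do not cover every gene, so others may have been missed. Positions were listed in all 3 samples of at least 1 strain in the windows of Rnf212 and Zfp872. Their sequences are printed because the positions listed in all 3 samples of a strain differed between strains. Capitals mark bases at positions listed in all 3 samples of at least 1 strain, and each sequence runs 5′ to 3′ on the gene's strand. The window of Rnf212, a RING finger protein that acts in meiotic crossing over, lies at chr5:108774978-108775277 on the minus strand, and that of Zfp872, a zinc finger protein, at chr9:22187916-22188215 on the plus strand.
Rnf212: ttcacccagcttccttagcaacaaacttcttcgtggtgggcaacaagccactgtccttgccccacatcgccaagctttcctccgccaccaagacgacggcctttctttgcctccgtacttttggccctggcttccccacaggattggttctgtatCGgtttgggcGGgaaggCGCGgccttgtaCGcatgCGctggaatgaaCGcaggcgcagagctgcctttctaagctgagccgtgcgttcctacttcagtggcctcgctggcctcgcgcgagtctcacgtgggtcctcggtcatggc
Zfp872: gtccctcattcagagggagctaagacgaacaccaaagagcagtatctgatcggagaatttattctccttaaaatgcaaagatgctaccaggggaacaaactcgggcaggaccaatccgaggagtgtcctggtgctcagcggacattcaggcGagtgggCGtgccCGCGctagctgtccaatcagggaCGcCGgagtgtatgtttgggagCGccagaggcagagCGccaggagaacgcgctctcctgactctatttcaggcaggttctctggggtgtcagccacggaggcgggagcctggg

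The Rnf212 window contained 22 CpGs, and 14 positions in it were listed in all 3 PWK/PhJ samples, 13 of them at a CpG of the reference. In none of the other 8 strains was any of them listed in all 3 samples. Their level in PWK/PhJ was 44.0% ± 8.29 (SD, n = 3). The member itself, chr5:108774001-108775000, ends inside the window, and its 6 shared positions lay 213 bp or more from the listed positions of the window. There the PWK/PhJ samples were at 30.7, 38.5 and 30.6%, below every sample of the other strains. The lowest of those were a DBA/2J sample at 45.6% and a 129S1/SvImJ sample at 52.8%, and the NOD/ShiLtJ mean was the highest at 88.9% ± 5.17 (SD, n = 3). So PWK/PhJ was both the strain with the low tile and the only strain with adjoining promoter positions listed in all 3 samples.

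At Zfp872 low promoter positions were read in strains with a low tile and in strains with a methylated one. The member, chr9:22187001-22188000, has its shared positions 538 bp or more from the listed positions of the window, outside the gene span, whose nearer end was 166 bp beyond the tile. The NOD/ShiLtJ samples were at 14.3, 8 and 6.67% and the CAST/EiJ samples at 32.0, 57.6 and 13.3%, so the latter 3 spread widely, while the other 7 strain means were 88.3 to 97.3%. In the promoter window the 15 marked positions were at 5.43% ± 2.53 (SD, n = 3) in PWK/PhJ, and 11 of them at 3.64% ± 1.70 (SD, n = 3) in WSB/EiJ, 2 strains that were methylated in the tile. The strains low in the tile had few of them listed, CAST/EiJ 3 and NOD/ShiLtJ 1, all at 0%. In 129S1/SvImJ 2 positions averaged 59.7% ± 41.7 (SD, n = 3), and in DBA/2J 5 positions averaged 25% ± 22.9 (SD, n = 3), and in A/J, C57BL/6J and NZO/HlLtJ no position of the window was listed in all 3 samples.

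In 155 of the 205 members (75.6%) a single strain was low, in 41 (20%) a pair of strains, in 6 there were 3 low strains and in 3 there were 4. Among the 155, the other 8 strains were all methylated at 58, and at the rest between 1 and 3 strains were intermediate. CAST/EiJ was low at 81 members and alone at 58 of them, and PWK/PhJ was low at 66 and alone at 46. With the limits and filters given, WSB/EiJ followed with 23, of which 14 were its own. NZO/HlLtJ was low at 20 members, 129S1/SvImJ at 18, C57BL/6J and DBA/2J at 17 each, NOD/ShiLtJ at 14 and A/J at 11. The order of these 7 strains changed under other settings: with limits of 80 and 30% WSB/EiJ was low at 6 members and 129S1/SvImJ and C57BL/6J at 9 each. Another strain was low as well at 13 of the 18 members of 129S1/SvImJ (72.2%), at 7 of the 11 of A/J (63.6%) and at 23 of the 81 of CAST/EiJ (28.4%), shares that were not tested. Intermediate levels were spread over all strains, from 14 members in A/J to 37 in PWK/PhJ, with 30 each in CAST/EiJ and WSB/EiJ. Where a strain was low, its 3 samples had a median SD of 3.49 points in 129S1/SvImJ and of 3.94 to 6.48 points in the other strains except A/J, where it was 10.3.

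**Figure D1:**
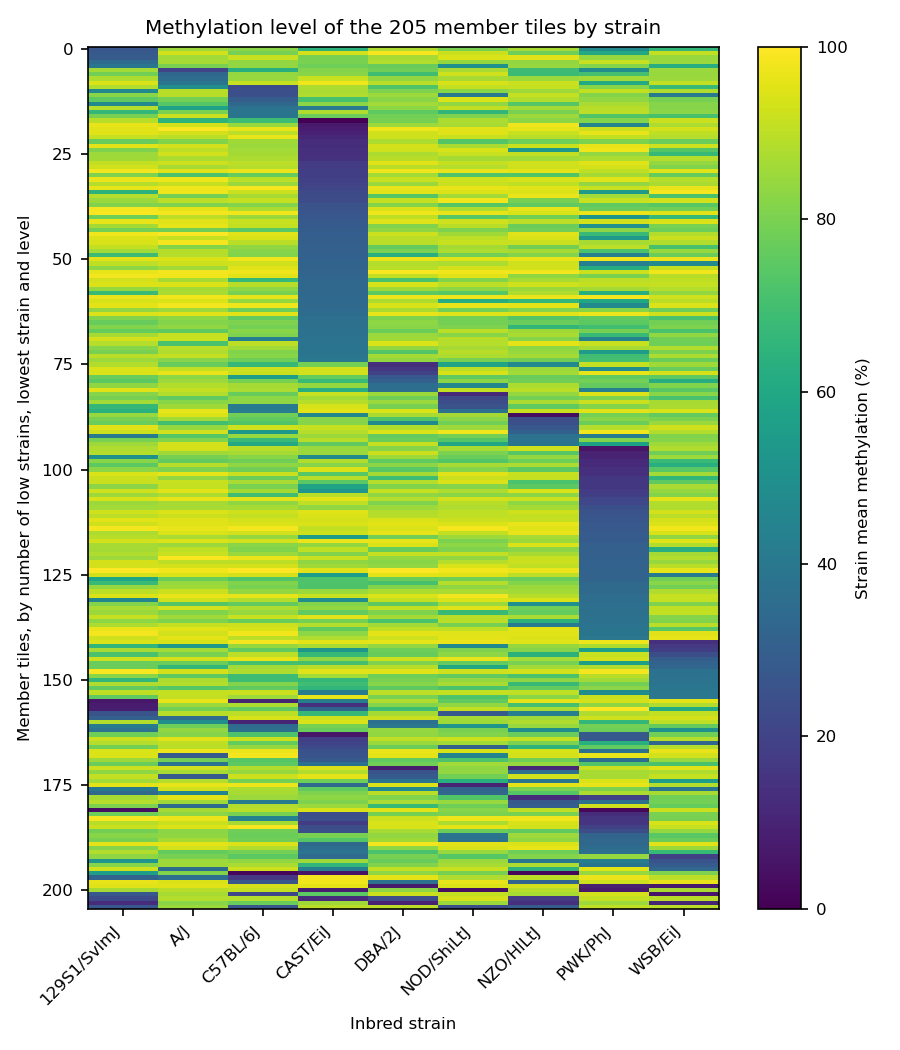
Heat map of the strain mean methylation level (0 to 100%, colour) at the 205 member tiles (rows, ordered by number of low strains, then lowest strain and level) in the 9 strains (columns). The 2 tallest dark blocks are the 58 tiles low in CAST/EiJ alone and the 46 low in PWK/PhJ alone, and the bottom 50 rows hold the tiles with 2 to 4 low strains.

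**Figure D2:**
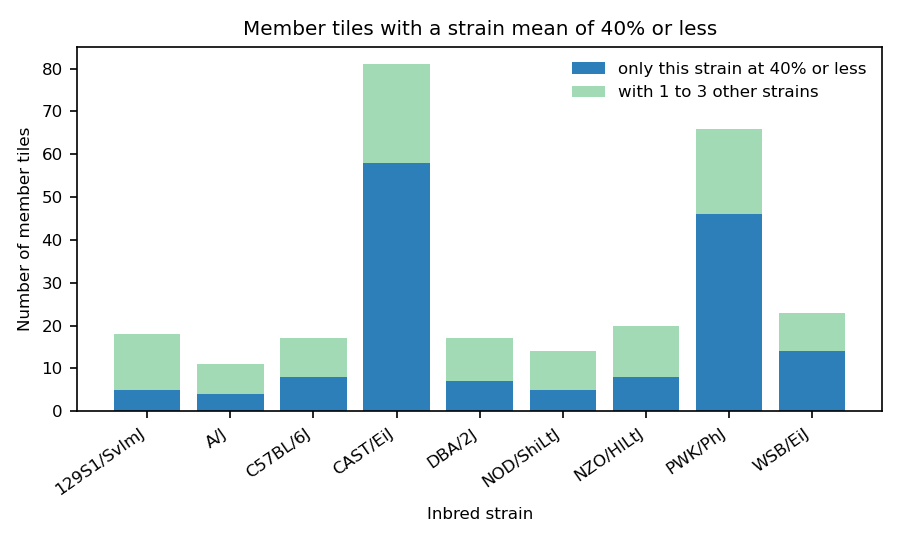
Number of member tiles (vertical axis) at which each strain had a mean of 40% or less, split into tiles where only that strain was low and tiles where 1 to 3 others were low too. CAST/EiJ (81) and PWK/PhJ (66) stand above the other 7 strains (11 to 23).

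The heat map and the bar chart show that CAST/EiJ, PWK/PhJ or both were low at 134 members (65.4%), and neither at 71. Both were low at 13, and at 12 of these no other strain was. At 22 members CAST/EiJ was low with PWK/PhJ intermediate, and at 13 members the reverse. Counting by origin, 133 members were low in wild-derived strains only, 52 in laboratory strains only and 20 in strains of both kinds. Over the comparison tiles the median level was 93.1% in CAST/EiJ and 92.7% in PWK/PhJ, against 91.97 to 92.7% in the other 7 strains. The comparison tiles were chosen for having no low strain, so nothing about methylated tiles in general is read from these medians.

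The lowest strain mean of a member had a median of 28.5% and ranged from 0 to 39.96%. It was 10% or less at 20 members, up to 20% at a further 37, up to 30% at 56 and up to 40% at 92. The median of the methylated strains at a member was 87.2%, against 92.5% at the comparison tiles, and the gap between that median and the lowest strain had a median of 60.4 percentage points (36.8 to 88.3). At members the median SD of 3 samples was 4.88 points where a strain was low, 6.41 where it was intermediate and 3.69 where it was methylated. For methylated strains at comparison tiles it was 2.83. Those tiles had higher levels and more shared positions, for which the SDs were not matched. No such value was computed for low or intermediate strains outside the members.

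Over all autosomal tiles tested by the moderated F test of limma, 6132 of 75083 (8.17%) were called different among strains (adjusted p under 0.05 and strain means spanning at least 25 points). Of the members 202 were called, a count that the choice of members fixes and from which nothing is read. The 3 that were not were in Zfp469 (129S1/SvImJ at 39.4%), in Slc8a1 (DBA/2J and NZO/HlLtJ, lowest mean 38.3%) and near Utp6 (WSB/EiJ at 37.7%). At 203 members, a count that the 2 limits nearly fix as well, every sample of the low strains lay below every sample of the methylated strains. The other two, chosen here after their values were seen, were a tile in Pebp4 (chr14:70000001-70001000), where a CAST/EiJ sample reached 66.7% and a C57BL/6J sample fell to 61.1%, and the tile chr14:78041001-78042000, where an A/J sample was at 66.7% and so was the lowest methylated sample.

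Samples left out of the strain means give a value of their own, although the shared positions were still those listed in all 27 samples. Each sample was left out in turn, and the members were chosen again from the other 26, which gave 202 to 215 members, 197 to 205 of them among the original 205. In 854 cases the left-out sample belonged to a strain that was then low, and in 638 of these (74.7%) the sample itself was at 40% or less, with 32 at 75% or more. A tile and strain can count once for each of the 3 samples, so the cases are not independent. In 4053 cases the strain of the left-out sample was methylated, and the sample was at 75% or more in 3689 (91.0%) and at 40% or less in 9. The median of the left-out sample at low tiles was lowest for CAST/EiJ replicate 1, at 23.6%, where 70 of 78 tiles were at 40% or less. It was highest for C57BL/6J replicate 2, at 45.8%, where 10 of 24 were, and for A/J replicate 1 it was 7 of 14. All 3 samples of every low strain were at 40% or less at 131 members.

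Some of the members with the widest gaps split into 2 levels, as did the tile in Rcor1, which encodes a corepressor that ties histone deacetylases to the demethylase Lsd1. At chr12:111093001-111094000 the CAST/EiJ samples were at 4.17, 9.82 and 9.36%, and the other 24 samples were at 87.2 to 100%. The PWK/PhJ mean, the next lowest, was 92.4% ± 4.53 (SD, n = 3). A tile in Lnx2, an E3 ubiquitin ligase, was likewise low in CAST/EiJ only (chr5:147031001-147032000), with samples at 7.82, 11.7 and 8.07% and the other strain means from 90.0 to 96.3%. Tmem267 had the lowest value of all: its tile chr13:119489001-119490000, which lies 528 bp from the RefSeq start, was listed at 0% at all 3 positions in all 3 CAST/EiJ samples. There C57BL/6J was intermediate and uneven, with samples at 77.2, 84.9 and 45.2%.

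PWK/PhJ had its lowest tile among those where it was alone in Ptpn3, a cytoplasmic tyrosine phosphatase. At chr4:57268001-57269000 its samples were at 5.78, 5.26 and 5.34%, and the other strain means were 81.8 to 93.4%. The lowest of those belonged to DBA/2J, in which a sample at 57.8% stood apart from 95.4 and 92.4%. For WSB/EiJ the lowest tile of its own lay in Kars, the lysyl-tRNA synthetase gene (chr8:111994001-111995000), with samples at 10.4, 4.76 and 25%. The other strain means were 93.8 to 98.4%, and no sample of those strains was below 87.96%.

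The laboratory strains had such tiles too. In NZO/HlLtJ, the New Zealand Obese strain, the tile in Sgk1 (chr10:21997001-21998000), the serum- and glucocorticoid-regulated kinase, was at 2.68, 5.00 and 1.82%, and CAST/EiJ was intermediate at 51.6, 45.7 and 41.4%. A tile without a gene, chr8:125370001-125371000, was between 10 and 12% in all 3 samples of NOD/ShiLtJ against 76.8 to 94.8% in the other strains. DBA/2J was at 4.78, 11.04 and 24.0% at chr15:87327001-87328000, a tile 216219 bp from the nearest protein-coding gene, Tafa5. At that tile NZO/HlLtJ (47.3% ± 2.30, SD, n = 3), NOD/ShiLtJ and C57BL/6J were intermediate, so the strains formed a gradient and not 2 groups. A/J was at 21.4, 20.6 and 19.2% in Zbtb7c, a BTB and zinc finger protein (chr18:75891001-75892000), with PWK/PhJ at 49.1% ± 2.97 (SD, n = 3). C57BL/6J was at 17.6, 31.5 and 21.5% in Rassf4, a Ras association domain protein (chr6:116647001-116648000), where A/J was at 49.3% ± 1.68 (SD, n = 3). For 129S1/SvImJ the tile in Pebp4 (chr14:69989001-69990000) was at 22.9, 30.9 and 26.7%, and CAST/EiJ, PWK/PhJ and WSB/EiJ were all intermediate there.

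**Figure D3:**
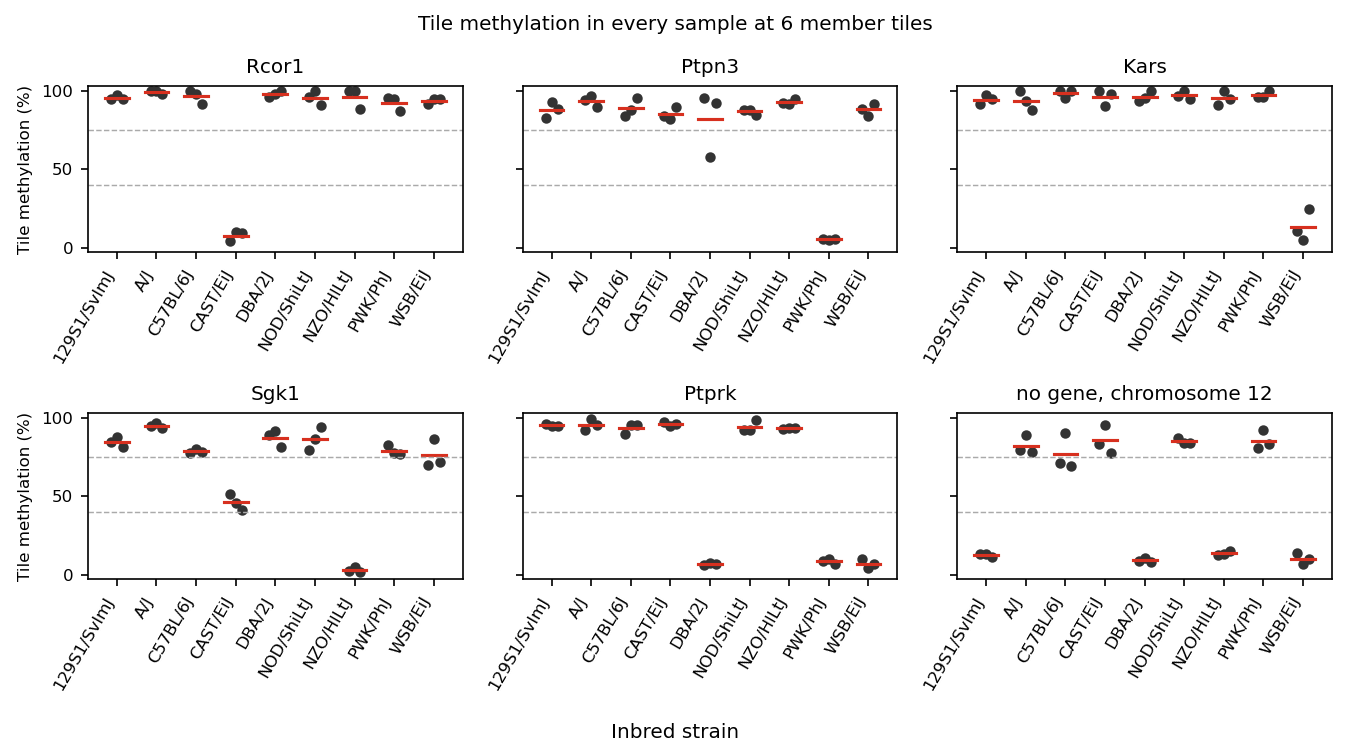
Methylation level (%, vertical axis) of 6 member tiles in each of the 27 samples (points) with the strain mean (red line) for the 9 strains; dashed lines mark 40 and 75%. The tiles in Rcor1, Ptpn3 and Kars are each low in 1 strain, Sgk1 is low in NZO/HlLtJ with CAST/EiJ intermediate, and Ptprk (3 low strains) and the gene-free tile on chromosome 12 (4 low strains) split into 2 levels.

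The plot of the 6 tiles also shows members with several low strains, and over the 50 such members the means of the low strains at a tile differed by a median of 5.30 points (0.301 to 26.4). The difference was at most 5 points at 25 of them and over 15 points at 7. In Ptprk, a receptor tyrosine phosphatase (chr10:28524001-28525000), DBA/2J was at 7.04% ± 0.650, PWK/PhJ at 8.67% ± 1.55 and WSB/EiJ at 7.06% ± 2.70 (SD, n = 3 each), and the other 6 strain means were 93.4 to 95.96%. At chr12:25871001-25872000, which overlaps no gene, 129S1/SvImJ, DBA/2J, NZO/HlLtJ and WSB/EiJ were at 9.25 to 13.8% and the other 5 strains at 77.0 to 85.6%. In Hspg2, the gene of the basement membrane proteoglycan perlecan (chr4:137559001-137560000), 129S1/SvImJ, C57BL/6J, NOD/ShiLtJ and NZO/HlLtJ were at 24.1 to 28.9% and the other 5 at 84.8 to 90.4%. The tile in 4930519G04Rik (chr5:114879001-114880000) was low in 129S1/SvImJ, CAST/EiJ, DBA/2J and NZO/HlLtJ, where CAST/EiJ at 12.0% ± 4.65 (SD, n = 3) was below DBA/2J at 23.8% ± 4.99 (SD, n = 3).

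In Lrp2, the endocytic receptor megalin (chr2:69459001-69460000), WSB/EiJ samples were at 9.26, 5.24 and 3.64%, C57BL/6J samples at 21.995, 23.9 and 17.5% and 129S1/SvImJ samples at 25.7, 28.0 and 27.6%, with no overlap between WSB/EiJ and the other two. The tile chr2:152197001-152198000 was low in CAST/EiJ, NOD/ShiLtJ and PWK/PhJ (4.05 to 7.53%), and here the methylated WSB/EiJ samples spread from 72.2 to 100%. A tile beside the condensin subunit gene Ncapg2 and within D430020J02Rik (chr12:116404001-116405000) was at 7.78% ± 4.85 in DBA/2J and 11.7% ± 6.65 in NZO/HlLtJ (SD, n = 3 each), which do not differ beyond that spread. In Ldlrad3 (chr2:102113001-102114000) CAST/EiJ took a level of its own, with samples at 41.3, 41.3 and 43.0% between the low 129S1/SvImJ and C57BL/6J and the methylated strains. At chr15:31168001-31169000 the 129S1/SvImJ samples (2.48 to 4.26%) all lay above the PWK/PhJ samples (2.05 to 2.32%).

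Genes at the 12 members low in CAST/EiJ and PWK/PhJ only, listed here after their values were seen, included Sgms2, a sphingomyelin synthase, with 18.0% ± 7.95 in CAST/EiJ and 15.4% ± 6.74 in PWK/PhJ (SD, n = 3 each). They also included Ccnf, the cyclin of an SCF ubiquitin ligase (24.4 and 15.4%), Snx9 (18.2 and 27.5%), Chd5, Pxt1 and Nsf. A gene-free tile on chromosome 13, chr13:52041001-52042000, had the largest difference between them, with CAST/EiJ at 5.89% ± 0.774 and PWK/PhJ at 28.5% ± 3.99 (SD, n = 3 each). The next largest was in Pxt1, with 25.1 and 37.6%.

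Most members rested on few shared positions. They held 3 to 94 shared positions (median 4, against 5 in the comparison tiles), and 53 of them (25.9%, against 18.8%) held just 3. The shared positions of a member spanned a median of 120 bp. This is the stretch between listed positions and not the width of the low methylation, and it was not computed for the comparison tiles. Of the 1263 positions in members, 1164 (92.2%) were at least 25 points lower in the lowest strain than in the methylated strains, and 1011 (80.05%) were at 40% or less. At 142 members every position was at least 25 points lower, and at 77 every position was at 40% or less. Each strand of a CpG had its own entry, and 410 CpGs in members were shared on both. In the lowest strain both strands were at 40% or less at 321 of these (78.3%), a single strand at 47 and neither at 42. The strands differed there by a median of 5.61 points. The median was 2.10 points in the methylated strains, but after each strand was averaged over at least 5 strains, so the medians cannot be compared. The members were chosen by the means of these same positions, so all these shares follow in large part from the choice and nothing is read from them. Neighbouring positions of a fragment come from the same reads and are not independent.

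The difference between low and methylated strains was followed outward over shared positions at which the methylated strains of the member averaged 75% or more, as the mean of the low strains minus the mean of the methylated strains. Inside the tile the median over members was -60.95 points. At 1 to 250 bp from the nearest shared position of the tile it was -42.5 points over the 44 members with positions there, and 29 of these still differed by 25 points or more. At 251 to 500 bp it was -4.98 points over 16 members, of which 3 differed that much. At 501 to 1000 bp it was -3.69 points over 25 members, and beyond that, out to 50000 bp, the medians were between -0.739 and 0.191 points. Most of the 205 members had no such position within 1000 bp outside the tile. Measured from the tile's edge instead, the medians were -30.3 points at 1 to 250 bp and -0.827 at 251 to 500 bp.

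**Figure D4:**
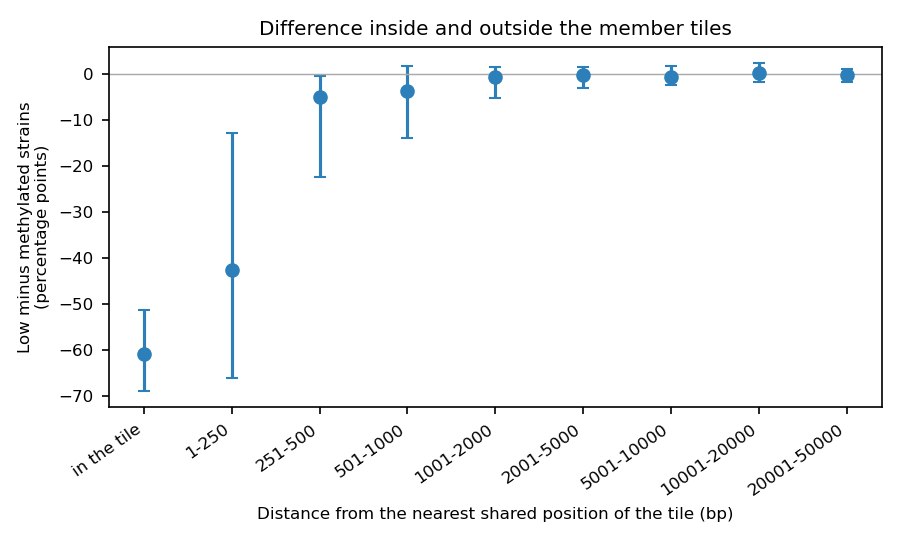
Low minus methylated strains (percentage points, vertical axis) at shared positions where the methylated strains averaged 75% or more, inside the member tiles and by distance from them in bp (horizontal axis); points are medians over members and bars the quartiles. The median is -60.95 points inside, -42.5 within 250 bp and within 5 points of 0 from 251 bp outward.

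Each point of the plot by distance covers the members that have shared positions at that distance, so the points rest on different members. Whole tiles beside the members were looked at in the same way. Of 67 tiles next to a member with at least 3 shared positions, 6 were members themselves. Of the other 61, the strains methylated at the member averaged 75% or more at 33, and there the low strains were within 10 points of them at 19 and at least 25 points lower at 10. At 16 these strains averaged over 25% and under 75%, and the low strains were at least 25 points lower at 7. So 17 of the 61 still differed by that much. At the remaining 12 the methylated strains of the member averaged 25% or less. Within 1 tile of a tile with all 9 strain means at 25% or less lay 11 members (5.37%, against 2.17% of comparison tiles), within 5 tiles 37 (18.0% against 13.3%) and within 20 tiles 102 (49.8% against 40.2%). The pairs of adjoining members were in Mn1 (both low in WSB/EiJ), in Mmd2 (both low in PWK/PhJ, at 17.9% ± 4.40 and 13.7% ± 5.62, SD, n = 3 each) and in Gm31175 (CAST/EiJ in both, PWK/PhJ in the second).

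The Mn1 pair carried 157 of the 1263 positions enough to follow the edge of a low region position by position. Mn1 encodes a transcriptional coregulator named for meningioma, and its span in the gene table is chr5:111417300-111457030. In the tiles chr5:111416001-111417000 and chr5:111417001-111418000 every strain mean was between 0.330 and 0.880%. In the next tile WSB/EiJ was still at 5.40% ± 0.425 (SD, n = 3), NOD/ShiLtJ, A/J and 129S1/SvImJ were at 14.1 to 18.8% and the other 5 strains at 28.6 to 33.4%. In the member chr5:111419001-111420000 the WSB/EiJ samples were at 18.2, 17.1 and 14.9%, NOD/ShiLtJ at 47.3% ± 1.03, A/J at 54.1% ± 5.38 and 129S1/SvImJ at 65.9% ± 6.28 (SD, n = 3 each), and the other 5 strains at 83.7 to 87.5%. In the member chr5:111420001-111421000 the order of these 4 strains was the same, at 32.7% ± 1.17, 60.1% ± 1.12, 66.1% ± 4.54 and 77.6% ± 3.36 (SD, n = 3 each), with the others at 86.0 to 89.5%. By the tile after it WSB/EiJ had reached 79.5% ± 4.31 (SD, n = 3) and the other strains 91.3 to 94.8%. The NOD/ShiLtJ and A/J samples were narrowly apart in the first member (46.6 to 48.5% against 49.3 to 59.9%, n = 3 each). The A/J samples overlapped those of 129S1/SvImJ (58.6 to 69.6%). How many distinct levels the strains took along this slope was not tested.

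**Figure D5:**
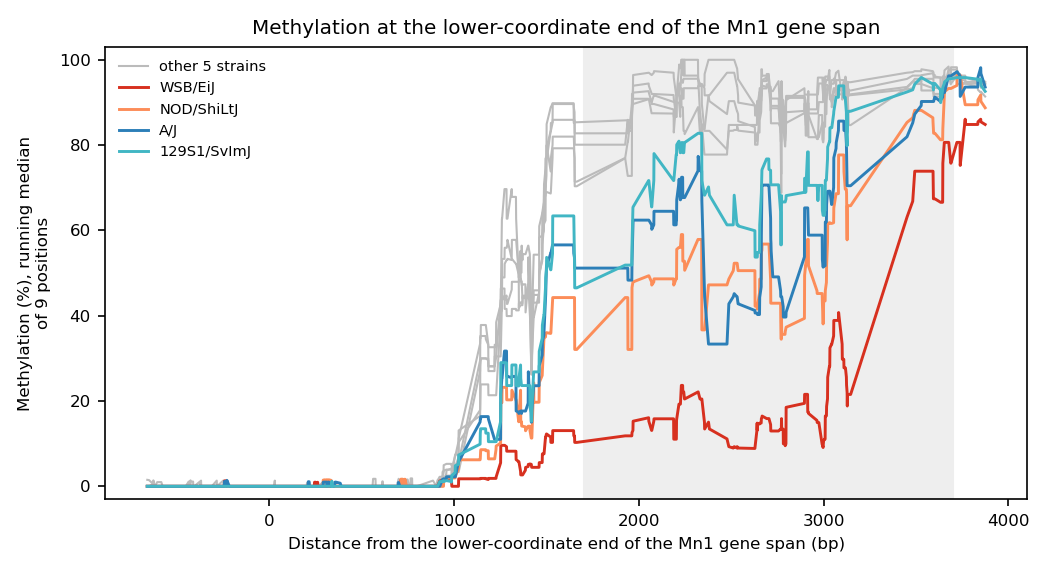
Methylation (%, running median of 9 shared positions, vertical axis) against distance in bp from the lower-coordinate end of the Mn1 gene span (horizontal axis), 1 line per strain; the shaded part is the pair of member tiles. All strains are near 0% at the left, and inside the shaded part WSB/EiJ is lowest, then NOD/ShiLtJ, A/J and 129S1/SvImJ, with the other 5 strains above.

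The plot of Mn1 shows that the level rose over the same stretch in all strains but WSB/EiJ and that NOD/ShiLtJ, A/J and 129S1/SvImJ then ran below the other 5, while WSB/EiJ stayed near 0% for longer. The member with the next most positions, 21, was in Wdr46, which encodes a nucleolar protein (chr17:33948001-33949000). Its C57BL/6J samples were at 27.6, 30.3 and 14.9% and 129S1/SvImJ was intermediate at 47.9% ± 4.51 (SD, n = 3), with the other 7 strains at 80.5 to 90.8%.

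Most members lay in or near genes, as did the comparison tiles. A protein-coding gene span was overlapped by 115 members (56.1%, against 63.4%), a long noncoding RNA gene by 18 (8.78% against 10.04%) and a pseudogene by 4 (1.95% against 1.85%). Distances to starts cover the 199 members and 50570 comparison tiles that have one in the table of starts. That table is incomplete, with none on chromosome 18 and none for Mn1, so the counts by distance may be too low. Within 1 kb of a protein-coding start lay 9 members (4.52%, against 2.88%) and within 5 kb 33 (16.6%, against 12.2%). These counts were not tested. Those within 1 kb included, besides Rnf212, Zfp872 and Tmem267, tiles at Zmynd8, Bag5 and Mmd2, named here after their values were seen. At Bag5, a cochaperone of Hsp70, the C57BL/6J samples were at 35.7, 29.8 and 34.3% (chr12:111711001-111712000). At Zmynd8, a chromatin reader, they were at 25, 55.6 and 8.33% over 3 positions (chr2:165878001-165879000), so a sample of the low strain was intermediate. A tile over the start of Gm34653 (chr2:34833001-34834000) was low in PWK/PhJ only, at 36.9, 47.2 and 34.5%, with the other strain means from 88.3 to 96.3%. By chromosome the share of methylated tiles that were members ran from 0.206% on chromosome 9 (6 tiles) to 0.659% on chromosome 17 (17 tiles). Members 100 kb to 1 Mb apart had a low strain in common in 14 of 29 pairs (48.3%), against 29.0% of pairs farther apart on a chromosome and 29.98% of pairs on different chromosomes.

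Members were also set against lists of genes of hepatocyte function. Of 10447 protein-coding genes that overlap a methylated tile 121 (1.16%) overlapped a member, and of 100 genes on the lists that do so 1 did (1%), so the lists lie near the share over all genes. Of 12 lists of genes, covering liver transcription factors, nuclear receptors, insulin and glucose handling, lipid metabolism, the clock, the methylation machinery, imprinting and cell type markers, a single list had a gene overlapped by a member: insulin and glucose, with Sgk1 as 1 of 22. There 16 of the 22 genes overlapped a methylated tile and could have held a member. For the other lists the gene count overlapping a methylated tile was 18 of 20 for lipid metabolism, 12 of 17 for nuclear receptors, 10 of 14 for the methylation machinery, 10 of 12 for clock genes, 9 of 15 for liver transcription factors and 11 of 16 for imprinted genes, and no gene of these held a member. Of the marker lists, 1 of 12 hepatocyte genes, 4 of 8 immune, 5 of 5 endothelial, 4 of 5 stellate and 2 of 3 biliary genes overlapped a methylated tile, and none held a member.

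Which positions were read moved with the low strains. Among positions in members that were listed in all samples of at least 5 other strains, a strain that was low at the tile listed 317 of 2448 (12.9%) in none of its samples. For strains methylated at the same tiles it was 268 of 12191 (2.20%), and at comparison tiles it was 2.72%. The share was higher where the strain was low in 7 of the 9 strains. In CAST/EiJ it was 19.5% where low and 6.18% where methylated, and in PWK/PhJ 19.8% and 5.74%. It was 9.62% and 1.25% in NOD/ShiLtJ and 8.90% and 0.975% in 129S1/SvImJ. The exceptions were C57BL/6J, with 1.15% and 1.62%, and A/J, with 0 of 67 positions and 1.30%. At 57 members some position was listed in all methylated strains and in no low strain (155 positions). At 38 some position was listed in all low strains and in no methylated strain (99 positions), and at 128 there was neither. Intermediate strains were left out of these counts.

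The number of positions listed inside the members ran from 2049 in a PWK/PhJ sample to 2225 in an NZO/HlLtJ sample. The PWK/PhJ samples listed 2049 to 2068, the CAST/EiJ samples 2052 to 2125 and the DBA/2J samples 2171 to 2216. As a share of all positions a sample listed, the PWK/PhJ samples were at 0.0667 to 0.0683% and the 129S1/SvImJ samples at 0.0714 to 0.0734%. For the number, a permutation test of the F statistic over the 9 strains (100000 resamples) gave F = 5.497 and p = 0.00143, and the share of all listed positions gave F = 16.5 and p = 1e-05, the smallest the permutations can give. Neither test is independent of the choice of members, which required listed positions in every sample and took most tiles for low levels in CAST/EiJ and PWK/PhJ. At comparison tiles these strains also lacked 7.17% and 7.40% of the positions that at least 5 other strains list, against 1.16 to 2.12% in the other 7, so nothing about the members is read from these p-values.

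Strains carry different sequences, and a changed base at a CpG can keep a position off a list or move its percentage. In the RefSeq promoter windows, 99.998% of the positions listed in all 27 samples fell on a CpG of the reference (241837 of 241842). Among positions that no C57BL/6J sample listed, 65.8% of those in all 3 CAST/EiJ samples did, 67.0% of those in all 3 PWK/PhJ samples and 68.1 to 71.0% in the other 6 strains. Members rest on shared positions alone. The part of sequence variants in the low levels was not tested.

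Members at the limits show how gradual the boundary of the set is. Just inside the limit of 40% was a tile in Rab12, a small GTPase (CAST/EiJ at 39.96%). So was a tile in Srl (WSB/EiJ at 39.6%, with single positions from 9.89 to 84.1%). Just outside were chr5:53243001-53244000 (PWK/PhJ at 40.1%) and chr2:170094001-170095000 (NZO/HlLtJ at 40.1%). At the limit of 75% on the fifth highest strain mean, a tile in the transcription factor gene Sp2 (75%) and chr8:47438001-47439000 (75.1%) were just inside, and tiles in Ccn6 (74.95%) and Gm33149 (74.9%) just outside. In the Sp2 tile, of 7 shared positions, the CAST/EiJ samples were at 48.6, 10.7 and 53.6% and the A/J samples at 52.4, 29.8 and 32.1%. Of these 6 samples 3 were above 40%.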

How the data were processed

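For each of 27 samples the authors deposited a list of positions with a percent methylation, per the file headers, without coverage. The submitters' processing notes name Trim Galore 0.6.3, Bowtie2, Bismark 0.22, GRCm38 and mm10. In promoter windows, nearly all positions listed in all 27 samples fell on CpGs of RefSeq GRCm38.p6, from which gene names were taken. Samples were grouped by the labelled strain. Replicates are labelled biological; C57BL/6J files name the mitochondrion differently from the others, so a difference in processing cannot be told apart from that strain.

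Members and gene lists were chosen with earlier results of these data known. Tile means were averaged over positions present in every file. limma 3.58.1 in R 4.3.3 tested strain on log2((percent + 5)/(100 - percent + 5)) for tiles with a mean of 2.5 to 97.5%, with Benjamini-Hochberg adjustment, and was checked on simulated data. Other values were computed in Python 3.11.15, numpy 2.4.6, pandas 2.3.3 and scipy 1.17.1. Gene spans carry no exons here, so exonic and intronic tiles were not separated. No miRNA hairpin overlapped a member. Named tiles are the 10 with the widest gap, the lowest of each strain where it is alone, the 3 with most low strains and the 3 with most positions. They also include those within 250 bp of a protein-coding gene's start, those in listed genes and those at the limits. Alternatives changed the tile grid, position minimum, limits, listing, strand handling, offset, scale, filters and samples.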

Additional observations from a re-analysis of the deposited data

How the results depend on the processing

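The number of members followed the limits and the position minimum. With at least 5 shared positions there were 98 members, 72 of them low in a single strain, 35 low in CAST/EiJ and 34 in PWK/PhJ, with 28032 comparison tiles and 3611 called tiles; left-out samples of low strains were then at 40% or less in 78.9% of cases. With limits of 80 and 30% there were 83 members, 66 in a single strain, 33 for CAST/EiJ and 28 for PWK/PhJ. With 70 and 50% there were 570 members, 419 members low in a single strain, 202 for CAST/EiJ and 178 for PWK/PhJ. CAST/EiJ and PWK/PhJ had the most low tiles under each of these. Without a minimum span 14884 tiles were called. Leaving out each sample in turn gave 202 to 215 members, 152 to 164 of them low in a single strain, 78 to 90 low in CAST/EiJ and 65 to 70 in PWK/PhJ, 52146 to 52209 comparison tiles, 5933 to 6377 called tiles and a p of 0.00046 to 0.00476 for the number of listed positions. Positions listed in at least 2 of 3 samples of every strain gave 289 members, 215 members low in a single strain, 109 members low in CAST/EiJ and 86 members low in PWK/PhJ, with 183 of the original 205 among them. Averaging the strands of a CpG kept 146 of the 205, and there the minimum of 3 counted CpGs and not positions, so it was also stricter. Leaving out C57BL/6J, chosen after seeing the data, kept 171. Replicate numbers did not pair the samples: deviations of same-numbered samples of different strains correlated at -0.0142 to 0.0153 over 76 pairs. With a replicate block 5619 tiles were called. Of 1526 alternative values, 1008 were adjusted p-values of the limma test at the 30 named tiles. Of these 0 lost or gained a call, which the choice of members nearly fixes. Among the other values, most of them counts, 43 moved. A reversal of direction was not looked for. Among the 7 strains with fewer low tiles the order changed: with at least 5 positions C57BL/6J had 12, NZO/HlLtJ 10 and WSB/EiJ 9, and with positions listed in at least 2 of 3 samples WSB/EiJ had 42, C57BL/6J 28, DBA/2J 27, NOD/ShiLtJ 27 and A/J 20. Depth is unknown, so levels at tiles with 3 positions cannot be given a counting error.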

Other observations

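The X chromosome was not part of the members. By the same limits 6 of its 1525 methylated tiles (0.393%) had a low strain, against 0.391% on the autosomes. PWK/PhJ was the low strain at 5 of the 6 and CAST/EiJ at the other one, and no laboratory strain or WSB/EiJ was low at any. The lowest, chrX:51351001-51352000, was at 30.4% ± 0.848 (SD, n = 3) in PWK/PhJ, with a median of 93.7% over the methylated strains, and 5 of the 6 tiles held just 3 shared positions. The animals were all female, and in females 1 X of each cell is inactivated.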
